A study of Mus musculus with 12 samples.

Results

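The sites described here are the HIF1A and ARNT binding sites around 6 mouse genes, Mif, Mgat3, Psma6, Mrpl45, Garre1 and Fbxo16. All peaks overlapping a gene's mm10 span, or the 30 kb on either side of it, were taken. The 6 genes, out of 21631 that code for proteins, were chosen by peak score, for sites among the highest at 4% O2. Earlier results of these data had also listed the sites near Psma6, Mrpl45, Garre1 and Fbxo16 as lacking ARNT peaks at 20% O2. The values below therefore describe the sites, and no test was made on them.

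Peak lists came from ChIP-seq, which sequences the DNA pulled down with an antibody, in the mouse neuroblastoma line N1E115, labelled as positive for NOS1. Cells were kept for 3 days at 4% or 20% O2, both with 5% CO2. The groups were HIF1A at 4% O2, HIF1A at 20% O2, ARNT at 4% O2 and ARNT at 20% O2, each with 2 lists. Nothing in the labels says whether replicates came from separate cultures. With 2 lists a group, an exact permutation test cannot pass 0.05, and agreement between lists stands in for an error.

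HIF-1 is a transcription factor of 2 subunits. HIF1A is destroyed when oxygen is plentiful, because prolyl hydroxylases mark it for the VHL ubiquitin ligase, and it accumulates when oxygen is scarce. ARNT is present at all oxygen levels and also partners other proteins, such as the aryl hydrocarbon receptor. The pair binds the hypoxia response element, whose core reads ACGTG or GCGTG. Its best known targets code for glycolytic enzymes, glucose transporters and vascular growth factors.

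The 6 genes have other roles. Mif codes for macrophage migration inhibitory factor, a cytokine. Mgat3 codes for the glycosyltransferase that adds the bisecting N-acetylglucosamine to N-glycans. Psma6 codes for an alpha subunit of the 20S proteasome core, and Mrpl45 for a protein of the large subunit of the mitochondrial ribosome. Garre1 codes for a protein that binds the small GTPase RAC1, and Fbxo16 for an F-box protein, a class that carries substrates to SCF ubiquitin ligases.

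With HIF1A, replicates 1 and 2 gave 42701 and 13655 peaks at 4% O2, against 5393 and 13386 peaks at 20% O2. With ARNT they gave 24942 and 9920 peaks at 4% O2, against 7252 and 1808 peaks at 20% O2. The HIF1A replicate 2 lists, at both oxygen levels, hold 1 bp positions, read here as summits and widened by 100 bp on either side, while the other 6 lists hold intervals. A rank orders the peaks of 1 list by score, rank 1 being the top, and a percentile gives that order in percent, 100 being the top. Overlapping peaks of a group were joined, and a reproducible region is one to which both replicates contributed. HIF1A replicate 2 at 20% O2 stood apart from the other lists at 20% O2 at these sites, so results that rest on it are given for each list.

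Sequence was at hand for the RefSeq promoters (build GRCm38.p6, the same as mm10) that lie under these sites, and 3 stretches are shown because each holds the promoter core nearest to the highest HIF1A summit of a lead site. Capitals mark every ACGTG or GCGTG, read on either strand, so a core on the opposite strand appears as CACGT or CACGC. The Mif stretch is bases 21 to 50 after the annotated start (chr10:75860228-75860257, minus strand). The other stretches run from 250 bases before to 30 after a start, at Mrpl45 (chr11:97315466-97315745, plus strand) and at Gm12758, a long non-coding RNA under the site near Garre1 (chr7:34234127-34234406, plus strand).
Mif: gagctgggtCACGTagctcaggtccctggc
Mrpl45: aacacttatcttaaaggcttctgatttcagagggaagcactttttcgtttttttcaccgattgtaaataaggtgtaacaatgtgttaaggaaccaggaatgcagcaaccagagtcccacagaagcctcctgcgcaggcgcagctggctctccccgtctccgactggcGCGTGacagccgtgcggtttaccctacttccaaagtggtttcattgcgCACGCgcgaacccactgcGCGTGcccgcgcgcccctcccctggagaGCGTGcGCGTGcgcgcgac
Gm12758: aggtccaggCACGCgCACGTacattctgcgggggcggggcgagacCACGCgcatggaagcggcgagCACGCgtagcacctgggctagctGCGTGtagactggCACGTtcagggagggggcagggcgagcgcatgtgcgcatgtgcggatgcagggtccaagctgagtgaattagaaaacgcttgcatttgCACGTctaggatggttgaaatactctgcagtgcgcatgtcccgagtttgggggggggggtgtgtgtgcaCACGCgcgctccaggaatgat

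The Mif promoter, from 250 bases before to 50 after the start, holds 1 ACGTG and 0 GCGTG. The Mrpl45 promoter holds 0 ACGTG and 5 GCGTG, and that of Gm12758 holds 3 ACGTG and 6 GCGTG. Of 21045 protein-coding promoters of this length, 21.1% hold ACGTG and 38.8% hold GCGTG on either strand. In the 1886 that overlap both a HIF1A and an ARNT region at 4% O2 these shares were 54.8% and 70.0%, against 17.7% and 35.8% in the other 19159. A match of letters is a description and not a measured site.

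Each of the 6 loci held 1 dominant site, at which HIF1A and ARNT peaks overlapped in all 4 lists at 4% O2. The lead site of a locus is the joined extent of its highest HIF1A and its highest ARNT region at 4% O2. Among 12710 HIF1A regions at 4% O2 the lead regions had ranks of 7 for Psma6, 9 for Mgat3, 17 for Mif, 39 for Garre1, 50 for Fbxo16 and 69 for Mrpl45. Among 6893 ARNT regions they had ranks of 8 for Mif, 13 for Psma6, 16 for Mgat3, 27 for Mrpl45, 33 for Garre1 and 36 for Fbxo16. Psma6 was thus highest for HIF1A and Mif for ARNT, but the order also changed between replicates of each antibody. In replicate 1 Mgat3 was highest of the 6 for both antibodies, with ranks of 5 (HIF1A) and 6 (ARNT). In replicate 2 Psma6 was highest for HIF1A (rank 5) and Mif for ARNT (rank 11). No difference between the antibodies is read from this order.

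**Figure D1:**
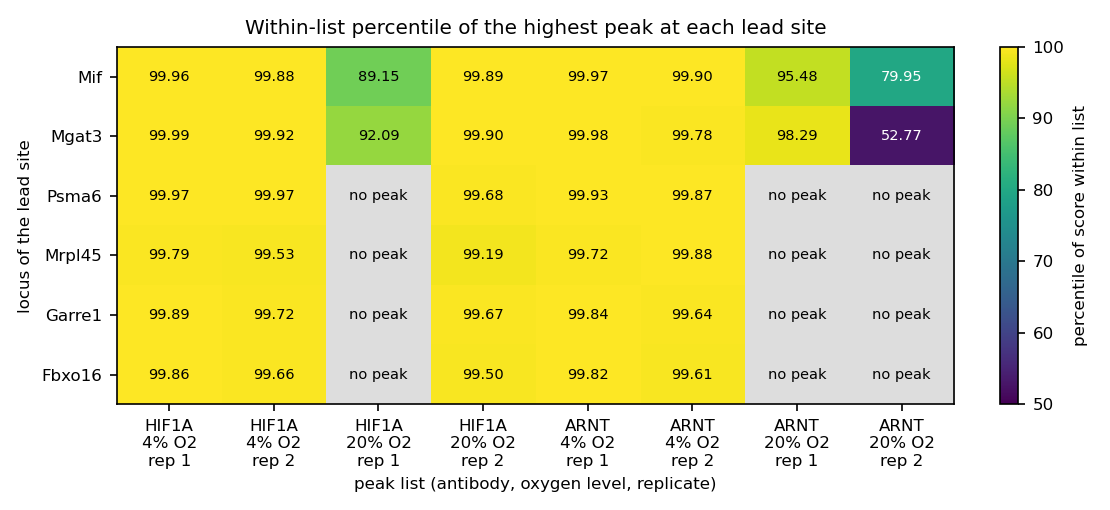
Percentile of the highest peak at each lead site within each of the 8 lists. Rows are the 6 loci, columns the lists by antibody, oxygen level and replicate, colour and number the percentile, and grey a list with no peak. Every 4% O2 list and HIF1A replicate 2 at 20% O2 have a peak at 99.19 or above at all 6 sites, and the other 20% O2 lists have one at Mif and Mgat3 and none at the other 4 sites.

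At Mif the site covered the whole gene. The HIF1A region (chr10:75859311-75861484) is 2174 bp long and the gene 925 bp (chr10:75859353-75860277, minus strand). The highest HIF1A peak had ranks of 16 and 18 in the lists at 4% O2, against 582 and 16 at 20% O2. The highest ARNT peak had ranks of 9 and 11 at 4% O2, against 328 and 360 at 20% O2.

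Mif had a peak in all 8 lists. At 20% O2 its percentiles were 89.15 (HIF1A replicate 1), 99.89 (HIF1A replicate 2), 95.48 and 79.95 (ARNT), while in the lists at 4% O2 they were 99.88 or more. The lists differ in length, so neither ranks nor percentiles show a change in the amount bound. At 20% O2 the peaks were also narrow, with 168 bp for HIF1A replicate 1 and 161 and 138 bp for ARNT. They lay on the annotated start, and the wide peaks at 4% O2 extended over it in both directions. The only core in the Mif promoter window, chr10:75860244-75860248, is the one in the stretch printed above. Its centre lay 37 bp from the HIF1A summit at 4% O2 and 7 bp from the one at 20% O2.

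A smaller ARNT region at 4% O2 (chr10:75860722-75861148, mean percentile 45.5 ± 35.5, SD, n = 2) lay inside the Mif site, over the start of Gm40697, a long non-coding RNA. The promoter of Gm40697 holds 2 ACGTG, which overlap as CACGTG at chr10:75860866-75860871. Further regions lay beyond Mif, at 12508 bp from it for HIF1A and 12514 bp for ARNT at 4% O2. There HIF1A had percentiles of 96.2 and 87.9 at 4% O2, against 27.1 and 87.7 at 20% O2. ARNT had percentiles of 95.1 and 79.6 there at 4% O2, against 45.5 and no peak at 20% O2.

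The Mgat3 site lay outside the gene, 3542 bp from the nearer end of its span (chr15:80173651-80215519), at chr15:80219061-80220436. It held the highest peak of chromosome 15 in both HIF1A and both ARNT lists at 4% O2. The highest HIF1A peak had ranks of 5 and 12 at 4% O2, against 423 and 14 at 20% O2. The highest ARNT peak had ranks of 6 and 23 at 4% O2, against 124 and 853 at 20% O2. Mgat3 thus resembled Mif in having a peak in all 8 lists, with the 2 ARNT lists at 20% O2 far apart in percentile, at 98.3 and 52.8.

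At the other end of Mgat3 both antibodies had a modest region at 4% O2, 220 bp from the gene for HIF1A (mean percentile 73.7 ± 16.7, SD, n = 2) and 253 bp for ARNT (46.0 ± 4.82, SD, n = 2). No list at 20% O2 had a peak there. The gene itself held no reproducible region between its ends. No protein-coding gene lies between Mgat3 and Mief1, which starts 13528 bp on the other side of the lead site and codes for a mitochondrial dynamics protein.

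The Psma6 site (chr12:55442683-55444994) lay 24224 bp from the nearer end of Psma6 (chr12:55384222-55418459), with no gene of any kind over it. The next protein-coding gene on the far side was Nfkbia, the NF-kappa-B inhibitor alpha gene, at 44415 bp. The highest HIF1A peak had ranks of 14 and 5 at 4% O2, against no peak and rank 44 at 20% O2. The highest ARNT peak had ranks of 18 and 14 at 4% O2 and no peak in either list at 20% O2.

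The site held the highest peak of chromosome 12 in replicate 2 of both antibodies at 4% O2, and the peak of rank 3 on it in replicate 1. The HIF1A peak there was also the widest of the 6 sites, at 2312 bp, a width percentile of 99.97 in its list. Beside it lay a further stretch with HIF1A at 97.9 and 93.4 at 4% O2 (chr12:55446364-55447625), against no peak and 80.7 at 20% O2. This stretch held 2 ARNT regions at 4% O2 that adjoin without overlapping (chr12:55446725-55447072 and chr12:55447073-55447388). Psma6 itself had an ARNT region at its downstream annotated start (chr12:55398659-55398879, percentiles of 92.3 and 34.8 at 4% O2), where HIF1A had a peak in 1 list at each oxygen level. Neither annotated promoter of Psma6 holds ACGTG or GCGTG.

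The Mrpl45 site (chr11:97315082-97315951) lay inside the gene, over its annotated start at 97315716. The highest HIF1A peak had ranks of 92 and 65 at 4% O2, against no peak and rank 109 at 20% O2. The highest ARNT peak had ranks of 72 and 13 at 4% O2 and no peak in either list at 20% O2. The 5 cores of its promoter lie between 97315633 and 97315737, and the HIF1A summits lay 10 bp (4% O2) and 2 bp (20% O2) from the centre of the one farthest upstream.

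A second strong site of the Mrpl45 locus lay 4386 bp outside the gene, inside the long non-coding RNA gene Gm31005 (chr11:97309270-97310537). HIF1A had percentiles of 99.1 and 98.1 there at 4% O2, against no peak and 65.5 at 20% O2. ARNT had percentiles of 98.9 and 97.7 at 4% O2 and no peak at 20% O2. It was the highest of the 15 HIF1A and of the 13 ARNT regions of the 6 loci that were not lead regions.

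The Garre1 site (chr7:34233341-34235509) lay 1198 bp from the nearer end of Garre1 (chr7:34236707-34313554) and 3005 bp from Gpi1, which codes for the glycolytic enzyme glucose-6-phosphate isomerase. It covered the starts of 2 long non-coding RNAs that run in opposite directions, Gm12762 (34234323) and Gm12758 (34234377). None of the 15 peaks at this locus touched the span of Garre1. The highest HIF1A peak had ranks of 50 and 39 at 4% O2, against no peak and rank 45 at 20% O2. The highest ARNT peak had ranks of 41 and 37 at 4% O2 and no peak in either list at 20% O2.

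The other region of this locus lay over the start of Gpi1 (34230336, minus strand). HIF1A had percentiles of 92.5 and 76.1 there at 4% O2, against no peak and 17.1 at 20% O2. ARNT had percentiles of 87.0 and 51.7 at 4% O2 and no peak at 20% O2. Of the 2 regions of this locus, the one over the Gpi1 start thus touches a glycolysis gene. The lead site lies between Gpi1 and Garre1, nearer to the end of the Garre1 span. Its centre lay 4089 bp upstream of the annotated start of Gpi1, while no annotated start of Garre1 was at hand. Which gene the lead site acts on was not tested. The Gpi1 promoter holds neither core. At the lead site the HIF1A summit at 4% O2 lay 3 bp from the centre of an ACGTG, the one at chr7:34234229-34234233, and the summit at 20% O2 lay 11 bp from a GCGTG. The window holds 9 cores in all.

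The Fbxo16 site (chr14:65331856-65332776) lay 7883 bp from Fbxo16 (chr14:65266618-65323973) and 25900 bp from Zfp395, which codes for a zinc finger protein. It held the highest peak of chromosome 14 in all 4 lists at 4% O2. The highest HIF1A peak had ranks of 59 and 48 at 4% O2, against no peak and rank 68 at 20% O2. The highest ARNT peak had ranks of 45 and 40 at 4% O2 and no peak in either list at 20% O2.

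On the Zfp395 side of the Fbxo16 site, both antibodies had a further region at 4% O2 (chr14:65343630-65344606 for HIF1A), 14558 bp from Zfp395 by its centre. HIF1A had percentiles of 97.5 and 90.5 there at 4% O2, against no peak and 82.0 at 20% O2. ARNT had percentiles of 94.5 and 75.6 at 4% O2 and no peak at 20% O2. Within Fbxo16 lay the only reproducible HIF1A regions at 20% O2 of these 4 loci, and they ranked low. The 2 of them had mean percentiles of 21.6 ± 3.53 and 25.8 ± 28.4 (SD, n = 2 each).

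**Figure D2:**
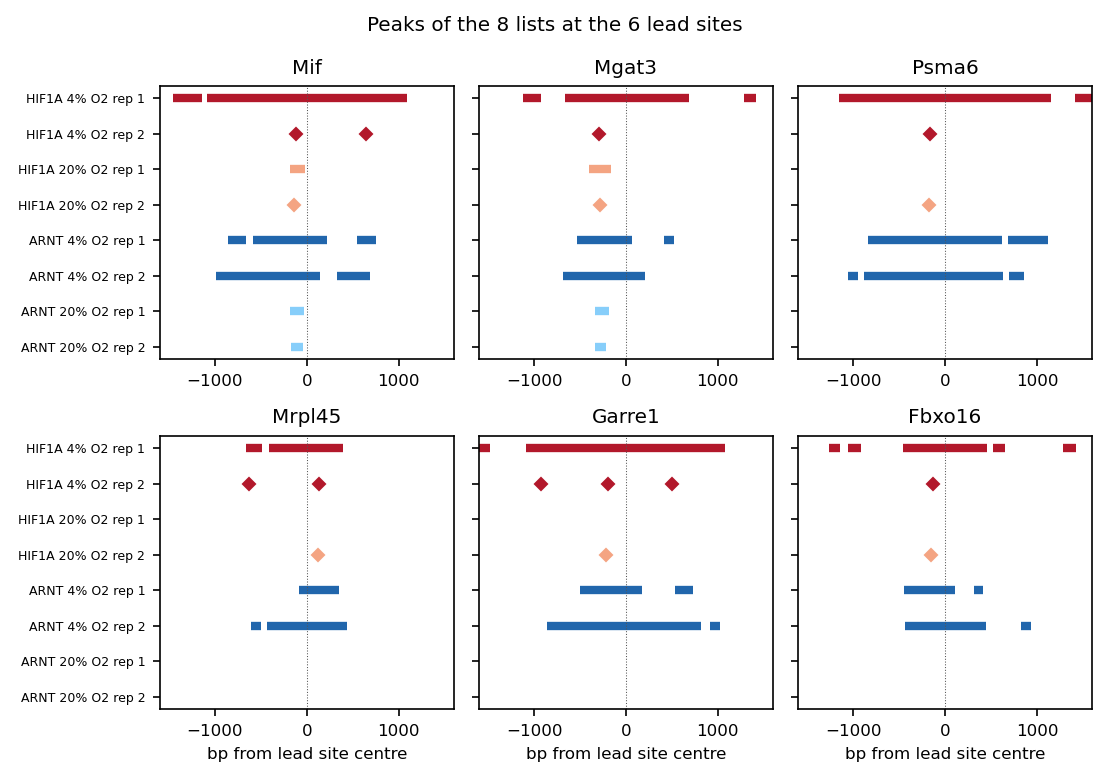
Peaks of the 8 lists around the 6 lead sites, by distance from the centre of the lead site in bp. Bars are called intervals, diamonds the 1 bp summits of HIF1A replicate 2, red tones HIF1A and blue tones ARNT, dark at 4% and light at 20% O2. Intervals at 4% O2 run to 2312 bp, those at 20% O2 to 238 bp, and the highest summits at the 2 oxygen levels lie within 30 bp of each other at every site.

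The highest HIF1A summit of a site lay at nearly the same base at both oxygen levels. The highest summits of replicate 2 at 4% and 20% O2 lay 30 bp apart at Mif, 22 bp at Garre1, 13 bp at Fbxo16, 12 bp at Mrpl45, 9 bp at Mgat3 and 5 bp at Psma6. Centres of the highest peaks in the 4 lists at 4% O2 spanned 150 to 420 bp, the most at Mif. At 4 of the 6 sites the ARNT region lay wholly inside the HIF1A region. The exceptions, Mgat3 and Mrpl45, had ARNT regions that extended past the HIF1A region.

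Widths at 4% O2 were far above those of other peaks of the same lists. The highest peaks of the 6 sites were 805 to 2312 bp wide in HIF1A replicate 1, whose median was 182 bp. In ARNT they were 436 to 1456 bp wide in replicate 1 and 870 to 1673 bp in replicate 2, against list medians of 141 and 181 bp. At 20% O2 the widths at Mif and Mgat3 ran from 116 to 238 bp, against list medians of 129 to 152 bp. Width and score belong to the same peak and are not independent measures.

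Across the 6 loci, reproducible regions numbered 21 of 12710 for HIF1A at 4% O2 and 5 of 4537 at 20% O2. For ARNT they numbered 19 of 6893 at 4% O2 and 2 of 1647 at 20% O2. When every list was shortened to its top 1808 peaks, they numbered 10 at 4% O2 and 2 at 20% O2 for HIF1A, and 7 at 4% O2 and 2 at 20% O2 for ARNT. Each of the 6 genes had one at 4% O2 with HIF1A, as did 45.8% of all protein-coding genes within 30 kb, and with ARNT, as did 38.5%. The choice of genes fixed these counts. At 20% O2 the genes with a region were 3 for HIF1A (15.5% of all genes), namely Mif, Mgat3 and Fbxo16, and 2 for ARNT (11.3%), namely Mif and Mgat3. The 15 HIF1A regions at 4% O2 that were not lead regions had a median percentile of 73.7, against 65.5 over all HIF1A regions, and the lowest was 18.2, at the lower end of Mrpl45. The 13 such ARNT regions had a median of 69.4, against 63.8, and the lowest was 20.4, inside the Psma6 site. Peaks summed over all lists numbered 140 at 4% O2 and 31 at 20% O2, sums that also carry the length of the lists. HIF1A replicates 1 and 2 had 56 of 42701 and 24 of 13655 peaks at 4% O2. At 20% O2 they had 5 of 5393 and 19 of 13386. ARNT replicates had 36 of 24942 and 24 of 9920 at 4% O2, and 5 of 7252 and 2 of 1808 at 20% O2.

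Of the 21 HIF1A regions at 4% O2, 15 overlapped an ARNT region (45.4% of all HIF1A regions did). Of the 19 ARNT regions, 18 overlapped a HIF1A region (83.9%). Both counts include the 6 lead regions, chosen by score. All regions at 4% O2 with a mean percentile of 99 or more overlapped the other antibody (100%). The choice of sites thus fixed that part of the counts. The ARNT region without HIF1A was the one at the downstream start of Psma6. Of the 19 ARNT regions at 4% O2, 15 had no ARNT peak in either list at 20% O2 (76.6% of all ARNT regions). Another 2 had one in both lists (7.78%). The 15 include the lead regions of Psma6, Mrpl45, Garre1 and Fbxo16, which the earlier results had listed for it, so nothing is read from this count. Of the 21 HIF1A regions, 5 had no HIF1A peak at 20% O2 (45.4% of all HIF1A regions), 4 had one in both lists (21.0%), and the other 12 in 1 list. None of the 5 was a lead region. Of HIF1A regions with a mean percentile of 99 or more, 100% had a peak in replicate 2 at 20% O2. These counts thus partly follow from the choice of sites.

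The contrast of HIF1A between oxygen levels at the 6 lead sites differed between replicates. In replicate 1, whose samples shared a lane with ARNT replicate 1, peaks at 20% O2 were present at 2 of 6 sites (22.2% of all HIF1A regions of 4% O2 had one). In replicate 2 they were present at 6 of 6 sites (53.3%). Among the 204 HIF1A regions of 4% O2 with a mean percentile of 99 or more, 29.9% had a peak in replicate 1 at 20% O2 and 100% in replicate 2. These 204 regions include the 6 lead regions. The choice of sites thus fixed the 6 of 6 in replicate 2, and nothing is read from the likeness of the counts.

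Within HIF1A replicate 2, whose lists are of similar length, the lead sites had ranks of 5 to 65 at 4% O2 and 14 to 109 at 20% O2. Within replicate 1 they had ranks of 5 to 92 at 4% O2, against 423 and 582 for the 2 sites with a peak at 20% O2. Sequencing depth is unknown. HIF1A replicate 2 was also set against input 5 and its lists hold 1 bp positions, while replicate 1 was set against input 4 and holds intervals. What part depth, input, kind of list and the combined runs of the replicate 2 samples had in this difference was not tested.

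For ARNT, peaks at 20% O2 were present at Mif and Mgat3 alone of the 6 lead sites, in replicate 1 (23.0% of all ARNT regions of 4% O2 had one) and in replicate 2 (8.20%). Among the 128 ARNT regions of 4% O2 with a mean percentile of 99 or more, 52.3% had none in either list and 20.3% had one in both, with 45.3% in replicate 1 and 22.7% in replicate 2. Nothing is read from the 4 sites without one, since the earlier results listed them for it. All 204 strong HIF1A and all 128 strong ARNT regions (100% in both cases) overlapped a region of the other antibody, as the 6 lead sites did.

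**Figure D3:**
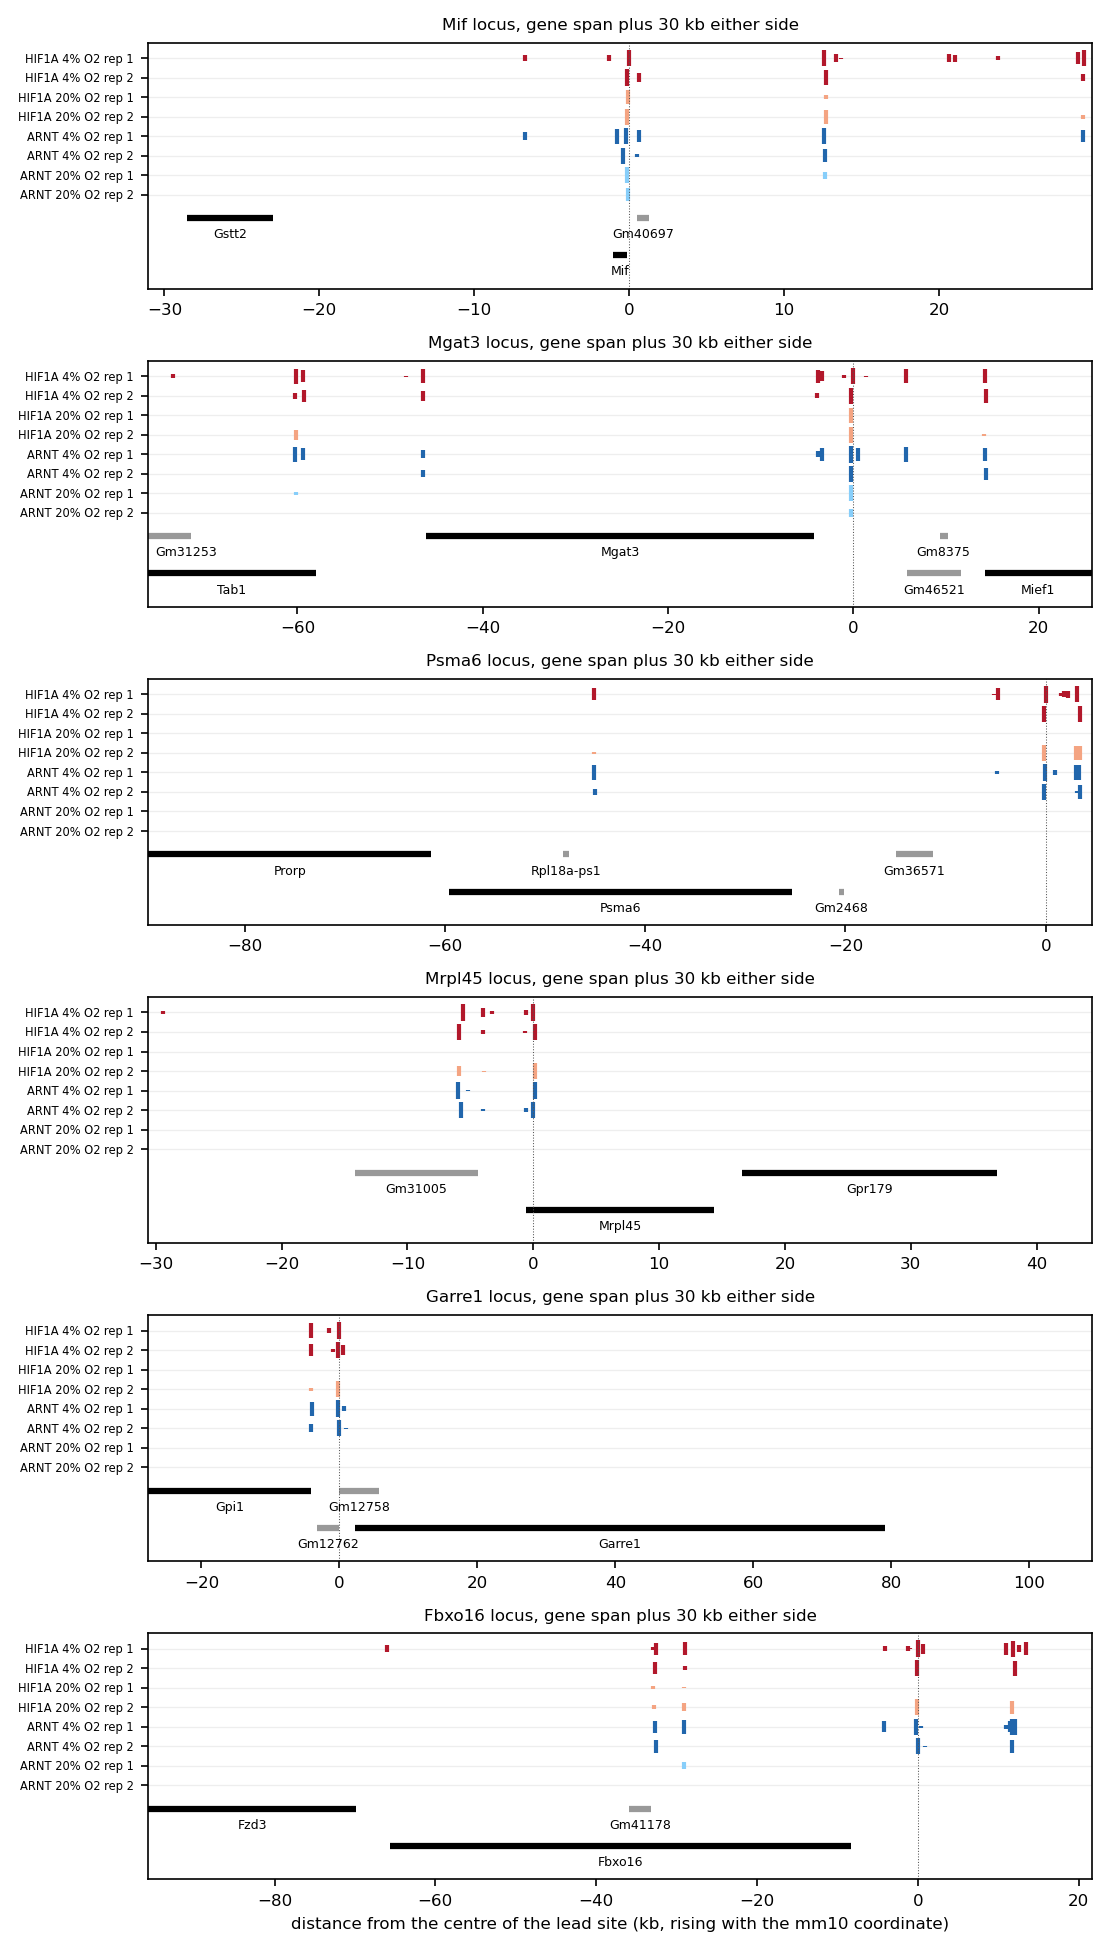
Peaks of the 8 lists over each gene span plus 30 kb, by distance from the centre of the lead site in kb. Height of a bar is the percentile within its list, colours are as for the close-up of the lead sites, black lines are protein-coding genes and grey lines other genes. The highest bars stack at 0 in every panel, and the 76848 bp of Garre1 hold no peak.

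Sites with the most similar pattern were sought among 13742 regions of HIF1A or ARNT at 4% O2, by the Euclidean distance over the 8 within-list percentiles, with 0 for no peak. Mif was closest to sites nearest to Actn1, an actinin gene (distance 5.60), Eno1, which codes for enolase (8.53), and Ccdc126 (9.58). Mgat3 was closest to sites nearest to Ccdc190 (5.04), Edn3 (19.2) and Pip5k1c (19.9). Some of these genes are far off, with site centres 95015 bp (Edn3), 20934 bp (Actn1) and 11496 bp (Ccdc190) from the gene end. Peaks in all 8 lists were found at 215 of the regions.

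The other 4 loci had distances of 0.19 to 0.71 among themselves. This likeness was largely fixed by the choice of sites, high at 4% O2 and listed for no ARNT peak at 20% O2, and nothing is read from it. The regions closest to Psma6 were those nearest to Rassf7 (0.14), Kdm6b (0.24) and P4ha2 (0.26), the last 2 coding for a histone demethylase and a collagen prolyl hydroxylase subunit. Garre1 was closest to regions nearest to Fam162a (0.12), Ldha, the lactate dehydrogenase A gene (0.16), and P4ha2 (0.16). By their centres the Rassf7 and Ldha regions lay 3354 and 3578 bp from the gene end. Fbxo16 was closest to Fam162a (0.14), Seh1l (0.16) and Tpi1, a glycolytic gene (0.18), and Mrpl45 to Hilpda (0.41), Seh1l (0.44) and Fbxo16 (0.45). Peaks in exactly these 5 lists were found at 2040 regions, and distances near 0 reflect that percentiles at the top of a list differ little.

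Genes grouped with the 6 were counted by 6 lists of a family or complex, called families here, with 129 genes besides the 6. The list for Garre1 holds the CCR4-NOT complex with Rac1, Tob1 and Tob2, and is not a gene family of Garre1. At 4% O2, 79 of them had a HIF1A region within 30 kb and 72 an ARNT region (61.2% and 55.8%, against 45.8% and 38.5% of all protein-coding genes). At 20% O2 there were 27 such genes with HIF1A and 28 with ARNT (20.9% and 21.7%, against 15.5% and 11.3%). These pooled shares were above those of all genes, with no test made. When every list was shortened to its top 1808 peaks, the order of the oxygen levels turned round for ARNT, with 17 genes at 4% O2 and 20 at 20% O2 (13.2% and 15.5%, against 8.83% and 7.66% of all genes). For HIF1A there were then 22 genes at 4% O2 and 12 at 20% O2 (17.1% and 9.3%, against 10.8% and 4.72% of all genes). Within each family, genes are named by the mean of their HIF1A and ARNT percentiles at 4% O2, with 0 for no region. Most of the regions named below lay nearer to the end of another gene.

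Of 6 relatives and receptors of Mif, Ddt and Cxcr4 had a HIF1A region at 4% O2 (33.3%, against 45.8% of all genes). Ddt, which codes for the tautomerase most similar to MIF, had mean percentiles of 93.6 for HIF1A and 87.9 for ARNT at 4% O2, with regions 34 and 15 bp from the gene, and none at 20% O2. Cxcr4, a chemokine receptor gene, had HIF1A regions at 46.2 at 4% O2 and 79.8 at 20% O2, and no ARNT region. Of 8 other genes of N-glycan branching, 6 had one for HIF1A and 4 for ARNT at 4% O2. These shares were 75% and 50%, against 45.8% and 38.5% of all genes. By that mean the highest were Mgat5b, at 91.6 and 86.6 inside the gene, Mgat2, at 91.7 and 84.0 but nearest to Dnaaf2, Mgat1, at 75.8 and 29.3, and Mgat4a, at 51.0 and 45.4. Mgat4b, with HIF1A at 82.1, had no ARNT region and so came lower.

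Of 18 other genes of the 20S proteasome core, 9 had a HIF1A and 8 an ARNT region at 4% O2, where the shares over all genes are 45.8% and 38.5%. Psmb5 and Psmb11 were highest at 92.7 and 91.4, through a single region nearest to Acin1, and Psmb3 came next at 89.2 and 77.9. Psmb10, at 83.5 and 60.2, had its region over the gene. Of 48 other genes of the large mitochondrial ribosomal subunit, 30 had a HIF1A and 28 an ARNT region at 4% O2. These shares were 62.5% and 58.3%, against 45.8% and 38.5% of all genes. Mrpl51 was highest at 99.8 and 99.4 through a HIF1A region 24470 bp from it, whose nearest gene is Gapdh, a glycolysis gene. Mrpl20, Mrpl53 and Mrpl57 followed at 97.8 to 98.9, through regions 27880 to 28120 bp away. Within 5 kb the mitochondrial ribosome had 17 of 48 for HIF1A and 14 of 48 for ARNT (35.4% and 29.2%, against 30.1% and 24.3% of all genes).

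Of 14 genes of the CCR4-NOT deadenylase complex and its partners, with Rac1, 12 had a region for each antibody at 4% O2. This share was 85.7%, against 45.8% (HIF1A) and 38.5% (ARNT) of all genes. Within 5 kb 10 of 14 had one for each antibody (71.4%, against 30.1% and 24.3% of all genes). Cnot1 was highest at 99.3 and 98.9 through a region nearest to Slc38a7, and Cnot9, at 93.8 and 94.9, and Cnot7, at 92.0 and 93.7, had regions that overlapped the gene. The Cnot7 regions lay nearest to the end of Vps37a. Cnot3 followed at 90.0 and 87.7, with its HIF1A region 4328 bp away and nearest to Tmc4. At 20% O2 the counts within 30 kb were 3 of 14 for each antibody. This share was 21.4%, against 15.5% (HIF1A) and 11.3% (ARNT) of all genes. Within 5 kb the counts at 20% O2 were 1 for HIF1A (8.64% of all genes) and 2 for ARNT (6.07%). Of 35 other F-box only genes, 20 had a HIF1A and 19 an ARNT region at 4% O2. These shares were 57.1% and 54.3%, against 45.8% and 38.5% of all genes. Fbxo36 was highest, at 99.3 and 99.2 inside the gene. Then came Fbxo42 at 98.4 and 96.6, Fbxo46 at 98.0 and 96.6 and Fbxo11 at 93.6 and 90.1. The HIF1A regions of Fbxo42, Fbxo46 and Fbxo11 lay 7716, 27823 and 15754 bp from the gene, nearest to Szrd1, Gipr and Msh6.

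**Figure D4:**
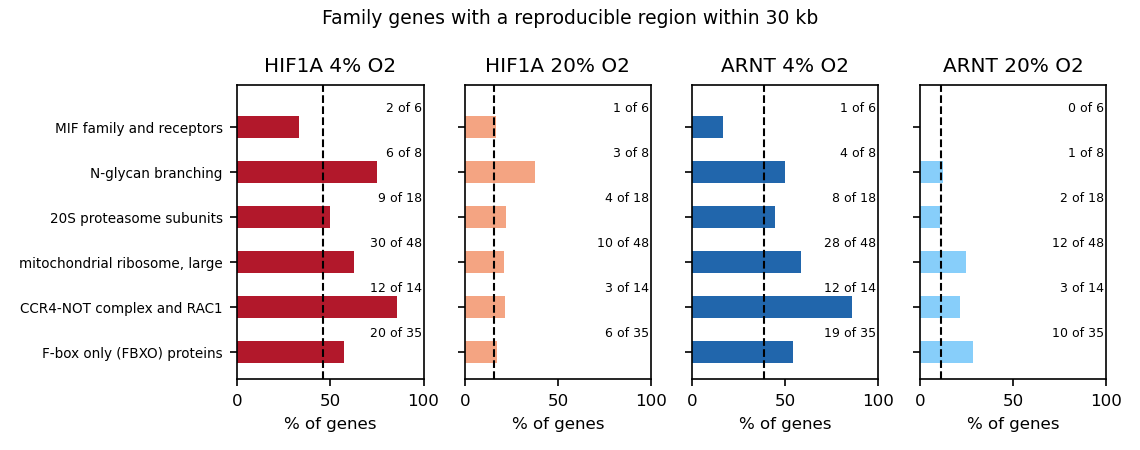
Share of genes of 6 lists, each a family or complex, with a reproducible region within 30 kb of the gene span, in percent. The 6 genes themselves are left out, and panels are by antibody and oxygen level. Counts stand above the bars and the dashed line is the share of all 21631 protein-coding genes. At 4% O2 the CCR4-NOT bars are the longest for both antibodies, at 85.7%, and the Mif family bars lie below the line.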

How the data were processed

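HIF1A and ARNT peaks of N1E115 cells were used, with 2 lists for each antibody at 4% and at 20% O2. The submitters' processing notes name BWA, Picard, MACS2 and mm10, with versions and settings not given in the sources used here. The authors deposited 1 list per sample, whose name gives an input of the same oxygen level. HIF1A replicate 2 was set against input 5, and HIF1A replicate 1 and both ARNT replicates against input 4, which they share. The score of each peak is the authors' deposited value, on a scale that is not named, so it served only to rank peaks inside a list. Depth is unknown, since the lists hold no counts. Per the file headers, the replicate 1 samples share a flow cell lane, while both ARNT replicate 2 samples came from other lanes. HIF1A replicate 2 lists have no header, and their reads combine runs, per the labels.

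Peaks of a group that overlapped by at least 1 bp were merged with Python 3.11.15 and pandas 2.3.3, after summits were widened by 100 bp either side. The merging was tested on simulated peaks. Gene spans and promoters came from RefSeq tables of GRCm38.p6. Promoters matched 3 of the 6 genes, by 4 entries, and all 135 family entries matched a gene. Exons and introns were not used here. Named genes are the 6, the genes within 30 kb of their lead sites, the 3 regions of most similar pattern for each, and up to 4 genes of each family by mean percentile at 4% O2. Nfkbia, Rac1, Tab1 and genes named as nearest to a region were added after values were seen. Members, lists and rules were chosen with earlier results of these data known. The alternatives were other flanks, windows, overlaps and list lengths, each replicate alone, percentiles within the chromosome, the lowest peak of a region, and all annotated genes.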

Additional observations from a re-analysis of the deposited data

How the results depend on the processing

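No paired analysis was possible because no test was made. Values within each replicate number stand side by side in the report. With a replicate left out, every peak of the remaining list counts as a region, so counts grow by construction. Over the 2 such settings, regions at the 6 loci ranged from 24 to 56 (HIF1A) and 24 to 36 (ARNT) at 4% O2, against 5 to 19 (HIF1A) and 2 to 5 (ARNT) at 20% O2. Genes with a HIF1A region at 20% O2 ranged from 3 to 6. HIF1A regions at 4% O2 overlapping ARNT ranged from 20 to 26, and ARNT regions at 4% O2 with no ARNT peak at 20% O2 from 22 to 31. Family genes ranged from 84 to 118 (HIF1A) and 82 to 112 (ARNT) at 4% O2, against 33 to 81 (HIF1A) and 28 to 61 (ARNT) at 20% O2. Lead sites with a HIF1A peak at 20% O2, a count added after the data were seen, numbered 6 without replicate 1 and 2 without replicate 2. A flank of 10 kb left 13 HIF1A and 11 ARNT regions at 4% O2, of which 9 HIF1A regions overlapped ARNT and 9 ARNT regions had no peak at 20% O2, and the Psma6 lead site then fell outside. With the highest 1808 peaks of each list there were 10 HIF1A and 7 ARNT regions at 4% O2 and 2 HIF1A regions at 20% O2, with 7 overlapping ARNT and 5 ARNT regions without a peak at 20% O2. Family genes then numbered 22 (HIF1A) and 17 (ARNT) at 4% O2, and 12 (HIF1A) and 20 (ARNT) at 20% O2, so that for ARNT 4% O2 was below 20% O2, the reverse of 72 and 28 with whole lists. Within 5 kb, family genes numbered 47 for ARNT at 4% O2, 14 for HIF1A at 20% O2 and 13 for ARNT at 20% O2. With percentiles taken within the chromosome, lead regions had mean percentiles of 99.4 to 100. With the lowest instead of the highest peak of each list, they had 56.0 to 99.97, and the regions with several peaks fell to 75.4 (Mif, HIF1A), 94.4 (Mif, ARNT), 59.0 (Garre1, HIF1A), 64.8 (Garre1, ARNT) and 56.0 (Fbxo16, ARNT). Motifs in the lead sites beyond annotated promoters were not searched here.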

Other observations

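Other genes of the 6 loci had weaker sites. Mief1, whose product acts in mitochondrial fission, had both antibodies over its annotated start at 4% O2, 18226 bp from Mgat3 (chr15:80233745-80234153). HIF1A had percentiles of 86.0 and 86.9 there at 4% O2, against no peak and 9.03 at 20% O2. ARNT had percentiles of 75.5 and 72.8 at 4% O2 and no peak at 20% O2. The Mief1 promoter holds 0 ACGTG and 0 GCGTG. Tab1, which codes for a partner of the kinase TAK1, held 2 HIF1A regions and 1 ARNT region at 4% O2 inside the gene, with mean HIF1A percentiles of 64.2 ± 37.0 and 72.1 ± 1.37 (SD, n = 2 each). At the first of these HIF1A had percentiles of 90.4 and 38.1 at 4% O2, against no peak and 59.7 at 20% O2. The second had no HIF1A peak at 20% O2. The ARNT region had percentiles of 87.4 and 1.61 in its lists at 4% O2, against 21.6 and no peak at 20% O2.

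Gene names attached to the sites depend on the distance allowed. The 6 lead sites lay 0 bp (Mif, Mrpl45), 1198 bp (Garre1), 3542 bp (Mgat3), 7883 bp (Fbxo16) and 24224 bp (Psma6) from the gene that names them. By the centre of the site and with all annotated genes allowed, the nearest gene end belonged to Gm12758 at the Garre1 site (48 bp) and to Gm36571 at the Psma6 site (11242 bp), both long non-coding RNAs. No annotated microRNA hairpin lay at any of the 6 loci (0 in each).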
